A study of Mus musculus with 20 samples.

Results

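*C1qa*, *C1qb*, *C1qc*, *Vcam1*, *Hmox1*, *Cd5l*, *Slc40a1* and *Mrc1*, 8 of the 24421 genes in the count files, were followed by their symbols through 20 RNA-seq libraries of bone marrow neutrophils. All 8 were among the 14030 genes that passed a filter on low counts. The genes are known from the resident macrophages of the marrow, which sit at the centre of erythroblastic islands, hold developing red cells by adhesion, engulf the expelled nuclei and aged cells, break down haem and return the iron to the blood. *C1qa*, *C1qb* and *C1qc* encode the chains of C1q, the recognition molecule of the classical complement pathway, which macrophages make and which tags dying cells for uptake. *Vcam1* encodes an adhesion molecule that holds erythroblasts and other blood cells. *Hmox1* encodes haem oxygenase 1, which splits haem and frees its iron, and *Slc40a1* encodes ferroportin, the iron exporter of the cell membrane. *Cd5l* encodes a secreted scavenger protein of macrophages, and *Mrc1* the mannose receptor, CD206, which takes up glycoproteins.

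The mice were female and formed 4 groups of 5 with 1 library per mouse. WT mice were C57BL/6J, and *Bmal1* Mye-/- mice carried *Bmal1* FloxP/FloxP with LysMCre, a Cre recombinase at *Lyz2* that is active in neutrophils, monocytes and macrophages alike, so resident macrophages are also cells in which the allele can be lost. WT mice carried neither allele. In each genotype 5 mice were untreated and 5 were treated with IMQ, a 5% cream of imiquimod, a Toll-like receptor agonist, on both ears 3 times a week for 6 weeks. Neutrophils were enriched by magnetic negative selection, so cells that escaped the selecting antibodies, or their RNA, can be in the samples. Reads on genes numbered 30782166 to 92613500 per library. Values are given as CPM, counts relative to a common library size and scaled with edgeR's TMM factors, which ranged from 0.854 to 1.38. *Arntl*, the symbol of *Bmal1* in the files, averaged 1.35 ± 0.322 CPM without IMQ and 1.11 ± 0.474 with it in WT, against 0.721 ± 0.24 and 0.702 ± 0.477 in *Bmal1* Mye-/- (SD, n = 5 each). A single count per gene does not separate the floxed exon from the others. *Lyz2* was at 2470 to 12000 CPM in the 10 WT libraries and at 58.8 to 177 in the 10 *Bmal1* Mye-/- libraries.

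Per length of exon, the 8 genes lay far apart. In RPKM, which divides CPM by the exon length in kilobases, the median over the 20 libraries was 96.5 for *Slc40a1* and 52.7 for *Hmox1*. *Vcam1* followed at a median of 4.04 RPKM, *C1qa* at 1.21, *C1qb* at 1.13 and *C1qc* at 0.954, and *Cd5l* and *Mrc1* were lowest at 0.239 and 0.167. The ranges of *C1qa* (0.399 to 5.18 RPKM), *C1qb* (0.463 to 7.33) and *C1qc* (0.112 to 5.22) overlapped almost entirely, as did those of *Cd5l* (0.104 to 0.889) and *Mrc1* (0.0193 to 0.811), so the order within each of these sets was not resolved. The lowest *Hmox1* library (35.9 RPKM) was above the highest *Vcam1* library (6.03 RPKM), while *Hmox1* reached 64.8 RPKM and *Slc40a1* ranged from 38.0 to 145 RPKM. The depth behind the values differed in the same way. Counts per library were 9583 to 36210 for *Slc40a1*, 2483 to 8388 for *Hmox1* and 465 to 2370 for *Vcam1*, but 18 to 308 for *C1qa*, 30 to 456 for *C1qb*, 4 to 359 for *C1qc*, 9 to 118 for *Cd5l* and 5 to 336 for *Mrc1*.

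**Figure D1:**
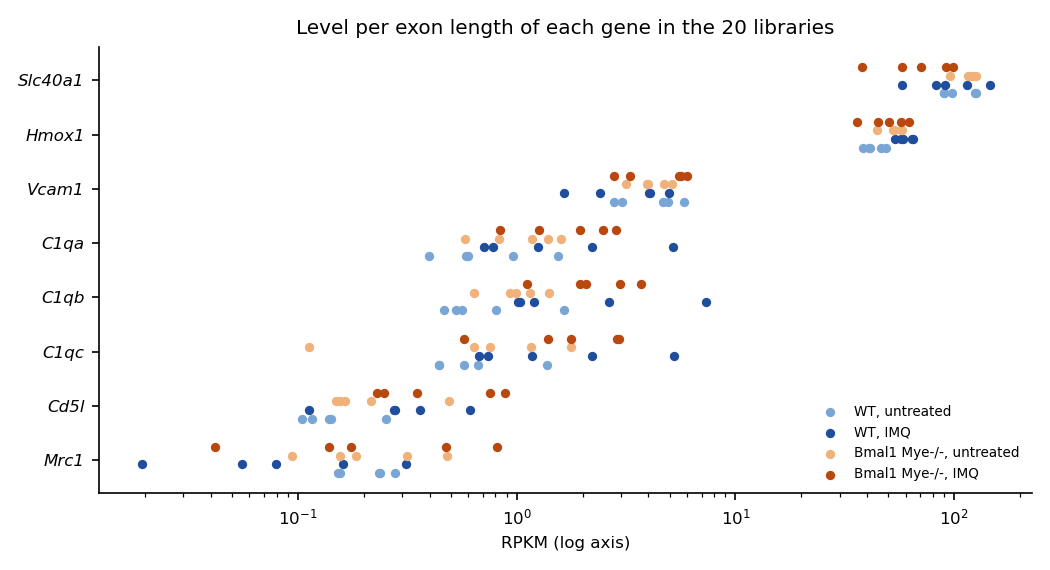
The level of each of the 8 genes in RPKM (log axis) is plotted for each of the 20 libraries, coloured by group. *Slc40a1* and *Hmox1* sit at 35.9 RPKM and above in every library, *Vcam1* between 1.64 and 6.03, and *Cd5l* and *Mrc1* below 0.889 or at it.

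Several defining markers of resident macrophages were scarce in these libraries, while other macrophage genes were not. *Timd4*, *Vsig4*, *Marco* and *Folr2*, surface receptors of resident macrophages, did not pass the filter, and their highest values were 0.23, 0.236, 0.486 and 0.13 CPM, each with libraries at 0. *Spic*, which encodes the transcription factor of iron-recycling macrophages, was at 0 to 0.682 CPM and *Cd163*, the haemoglobin receptor, at 0.104 to 2.11. *Siglec1*, a sialic acid receptor of marrow macrophages, was at 0.105 to 9.06 CPM. *Adgre1*, which encodes F4/80, and *Csf1r*, the receptor for macrophage colony-stimulating factor, ranged from 4.18 to 44.4 and from 12.3 to 227 CPM, and both are also expressed by monocytes. The summed CPM of 11 neutrophil genes was 70400 to 150000. With several defining markers at or near 0, the 8 genes are called here by their names and are not read as a measure of macrophages. In bulk samples of this kind, fewer cells of a type and less RNA per cell cannot be told apart.

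The C1q genes lie together on chromosome 4 of mm10, all on the minus strand, with *C1qb* at chr4:136880129-136886187, *C1qc* at chr4:136889804-136893065 and *C1qa* at chr4:136895917-136898803. Promoter sequences from RefSeq on GRCm38.p6, from 250 bases before to 50 after the start of transcription, were at hand for 4 of the 8 genes, *C1qb*, *C1qc*, *Cd5l* and *Mrc1*, and those of the 2 neighbouring C1q genes are shown because these genes varied together across libraries. Both are written 5′ to 3′ on the minus strand, *C1qb* from chr4:136886151-136886450 and *C1qc* from chr4:136892865-136893164. Capitals mark matches, on either strand, to the motifs searched for.
C1qb: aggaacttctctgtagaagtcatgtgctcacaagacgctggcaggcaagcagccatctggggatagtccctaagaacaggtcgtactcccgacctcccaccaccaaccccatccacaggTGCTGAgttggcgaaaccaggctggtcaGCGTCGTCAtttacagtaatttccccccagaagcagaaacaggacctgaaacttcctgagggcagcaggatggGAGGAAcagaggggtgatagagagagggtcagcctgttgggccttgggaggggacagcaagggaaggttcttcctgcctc
C1qc: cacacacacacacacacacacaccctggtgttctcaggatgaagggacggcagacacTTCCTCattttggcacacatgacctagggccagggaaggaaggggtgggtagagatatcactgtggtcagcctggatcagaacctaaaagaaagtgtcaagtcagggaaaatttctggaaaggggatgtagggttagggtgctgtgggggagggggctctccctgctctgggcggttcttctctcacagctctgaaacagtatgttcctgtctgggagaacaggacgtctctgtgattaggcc
The letters GAGGAA, the core bound by the ETS factors PU.1 and SPI-C, were found in each of the 4 promoters and in 28.3% of 32851 mouse promoters of the same length. In *C1qb* they began 30 bases before the start and in *C1qc*, on the opposite strand, 193 bases before it. TGCTGA, part of the sequence bound by MAF factors, was found in *C1qb* and *Cd5l*, and in 19.5% of all promoters. TGACNNNGC, the core of the antioxidant response element, was found in *C1qb* alone of the 4 (12.4% of all promoters), and GGGNNTTCC, an NF-kB core, in *Mrc1* alone (5.82%). CACGTG, the E-box that BMAL1 and CLOCK bind, was in none of the 4 windows and in 7.15% of all promoters. GAAANNGAA, the core of interferon-stimulated elements (8.56% of all promoters), TTCNNNGAA, a STAT core (8.3%), and TATAAA (13.6%) had no match in these windows. All were searched on both strands, no matches overlapped each other, and a match is a run of letters, not evidence of binding.

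Without IMQ, the C1q genes were near 1 CPM in both genotypes, and with IMQ their means were higher in both, with much wider spread. *C1qb* was at 0.504, 0.609, 1.79, 0.576 and 0.879 CPM in untreated WT replicates 1 to 5 and at 1.25, 1.53, 1.01, 0.692 and 1.08 in untreated *Bmal1* Mye-/-. With IMQ it was at 2.87, 1.3, 7.98, 1.13 and 1.1 CPM in WT replicates 1 to 5 and at 3.23, 1.22, 2.25, 2.12 and 4.04 in *Bmal1* Mye-/-. Among the WT libraries, replicate 3 with IMQ stood far above all others and untreated replicate 3 lay above 3 of the 5 treated libraries, so the groups overlapped. In *Bmal1* Mye-/-, 4 of the 5 treated libraries were above every untreated one and replicate 2 was not. The log2 fold change with IMQ was 1.72 in WT (standard error 0.522, edgeR adjusted p = 0.0658) and 1.20 in *Bmal1* Mye-/- (standard error 0.515, edgeR adjusted p = 0.0912). Neither passed the threshold of 0.05. Without WT IMQ replicate 3 the value in WT was 0.86 (edgeR adjusted p = 0.253), and without WT IMQ replicate 5 the gene passed (edgeR adjusted p = 0.0209).

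The means of *C1qa* and *C1qc* were also higher with IMQ in both genotypes, with more overlap and without passing. *C1qa* was at 0.852 ± 0.476 CPM in untreated WT, 2.1 ± 1.94 in IMQ-treated WT, 1.16 ± 0.43 in untreated *Bmal1* Mye-/- and 1.95 ± 0.858 in IMQ-treated *Bmal1* Mye-/- (SD, n = 5 each). Its log2 fold change with IMQ was 1.30 in WT (standard error 0.514, edgeR adjusted p = 0.140) and 0.74 in *Bmal1* Mye-/- (standard error 0.507, edgeR adjusted p = 0.283). *C1qc* was at 0.844 ± 0.472, 2.41 ± 2.29, 1.07 ± 0.749 and 2.29 ± 1.21 CPM in the same order (SD, n = 5 each), with log2 fold changes of 1.51 in WT (standard error 0.622, edgeR adjusted p = 0.155) and 1.08 in *Bmal1* Mye-/- (standard error 0.614, edgeR adjusted p = 0.194). Of the 5 treated *Bmal1* Mye-/- libraries, 3 for *C1qa* and 2 for *C1qc* were above every untreated one. WT IMQ replicate 3 held the highest value of the 20 libraries for all 3 genes, and the lowest *C1qc* value, 0.135 CPM, rested on 4 reads in untreated *Bmal1* Mye-/- replicate 3, the library with the fewest reads. Without WT IMQ replicate 3 the log2 fold changes in WT were 0.58 for *C1qa* and 0.76 for *C1qc*. Summed over the 3 genes, WT libraries ranged from 1.72 to 5.06 CPM untreated and from 2.75 to 19.6 with IMQ, and *Bmal1* Mye-/- libraries from 1.75 to 5.06 untreated and from 2.78 to 10.1 with IMQ.

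Between genotypes no C1q gene passed. In untreated mice the log2 fold changes of *Bmal1* Mye-/- against WT were 0.45 for *C1qa*, 0.36 for *C1qb* and 0.36 for *C1qc*, with standard errors of 0.511, 0.516 and 0.615. In IMQ-treated mice they were −0.11, −0.16 and −0.07 with standard errors of 0.502, 0.504 and 0.603. These last values rested on 1 library, since without WT IMQ replicate 3 they were 0.62, 0.70 and 0.68. None of these passed either (edgeR adjusted p = 0.3, 0.205 and 0.374). The difference between the IMQ effects of the genotypes, the interaction, was −0.56, −0.51 and −0.43, with standard errors of 0.716, 0.721 and 0.861 and edgeR adjusted p-values of 0.736, 0.759 and 0.837.

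**Figure D2:**
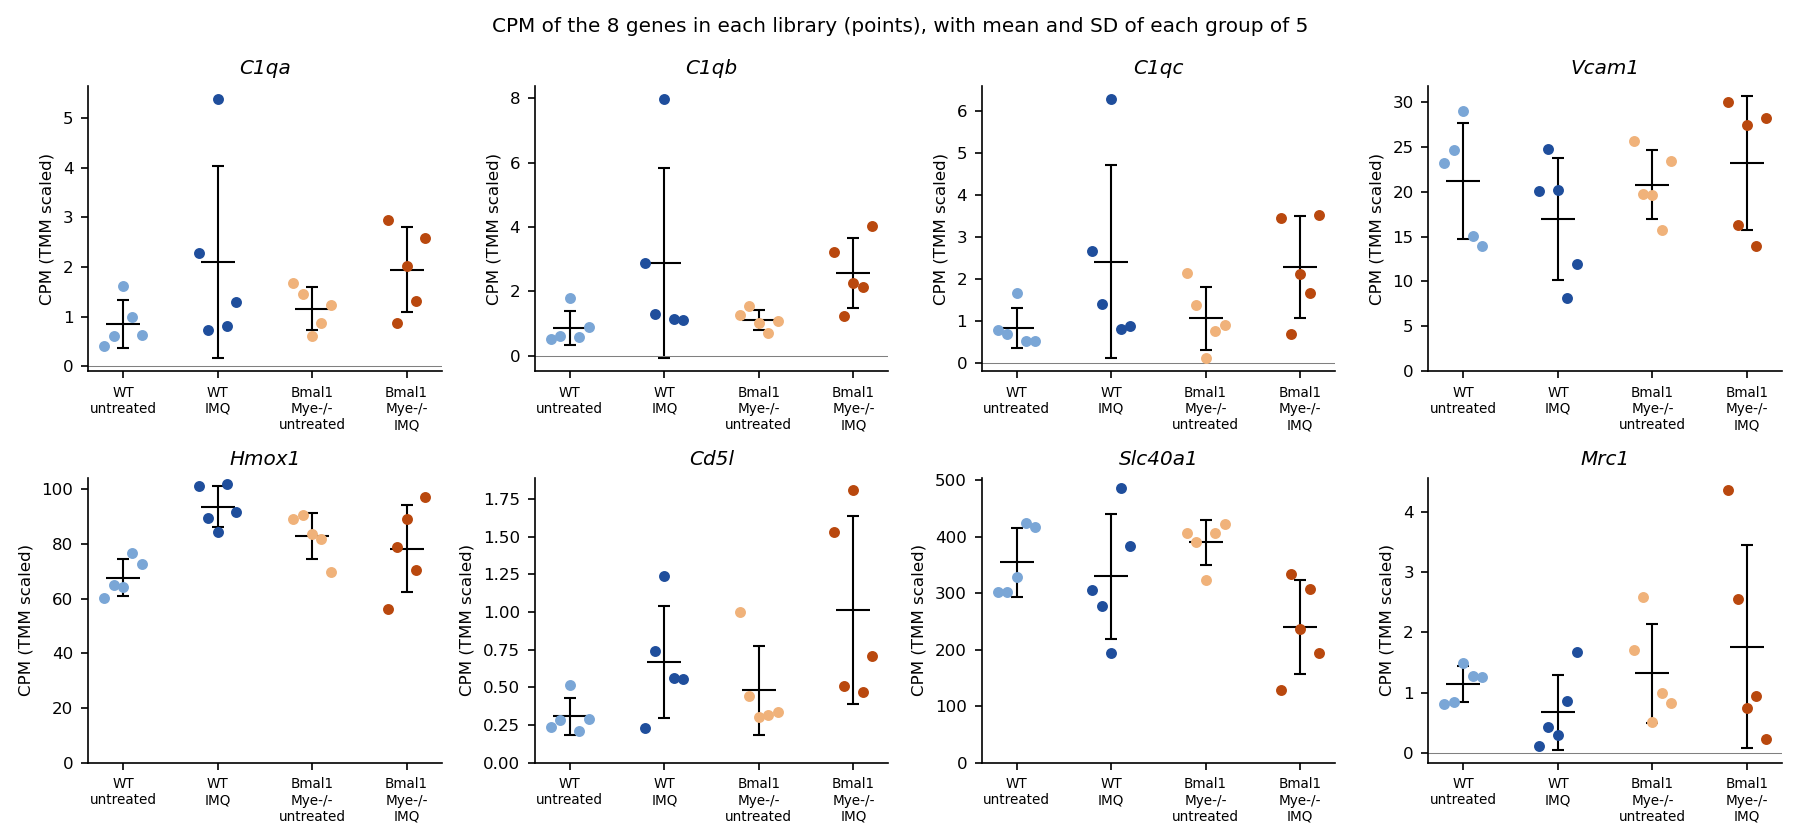
Each panel shows the CPM (TMM scaled) of 1 of the 8 genes in every library (points), with the mean and SD of each group of 5. WT IMQ replicate 3 is the highest point for *C1qa*, *C1qb* and *C1qc*, the *Hmox1* points of untreated and IMQ-treated WT do not overlap, and 4 of the 5 IMQ-treated *Bmal1* Mye-/- points for *Slc40a1* lie below all 5 untreated ones.

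*Vcam1* (chr3:116109949-116129688, minus strand), the adhesion gene of the set, did not pass in any comparison. It was at 21.2 ± 6.46 CPM in untreated WT, 17.0 ± 6.78 in IMQ-treated WT, 20.8 ± 3.82 in untreated *Bmal1* Mye-/- and 23.2 ± 7.46 in IMQ-treated *Bmal1* Mye-/- (SD, n = 5 each). The libraries ran from 13.9 to 29.0 CPM, 8.19 to 24.8, 15.7 to 25.7 and 13.9 to 30.0 in these groups, so each group overlapped every other. The log2 fold change with IMQ was −0.31 in WT (standard error 0.283, edgeR adjusted p = 0.554) and 0.15 in *Bmal1* Mye-/- (standard error 0.282, edgeR adjusted p = 0.711). Its interaction was 0.47 (standard error 0.399, edgeR adjusted p = 0.654). An antisense gene, *Gm43109* (chr3:116128451-116141016), which is not in the count files, overlaps 1 end of *Vcam1* on the other strand. The strand setting of the counting is not given in the sources used here, so reads of the pair within the shared stretch cannot be told apart.

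Of the 2 genes of iron handling, *Hmox1* (chr8:75093621-75100589, plus strand) rose with IMQ in WT. It was at 60.2, 64.9, 64.2, 76.5 and 72.8 CPM in untreated WT and at 101, 89.5, 84.2, 102 and 91.6 in IMQ-treated WT, so that every treated library was above every untreated one. *Bmal1* Mye-/- libraries were at 89.1, 90.5, 83.6, 81.8 and 69.6 CPM untreated and at 56.3, 78.8, 89.1, 70.4 and 97.0 with IMQ, which overlapped, and the treated libraries spread on both sides of the untreated ones. The increase in WT was 1.38-fold (log2 fold change 0.47, standard error 0.122, edgeR adjusted p = 0.0403), while the log2 fold change in *Bmal1* Mye-/- was −0.08 (standard error 0.122, edgeR adjusted p = 0.636). The call in WT was close to the threshold. With the replicate number as a block it was lost (log2 fold change 0.47, edgeR adjusted p = 0.0734), and in the 10 fits that each left out 1 of the WT libraries it held only without IMQ replicate 5 (adjusted p = 0.0276), with log2 fold changes of 0.42 to 0.52 and edgeR adjusted p-values of 0.0276 to 0.116. Over the 9 settings that kept all libraries, the block among them, adjusted p-values ran from 0.0147 (DESeq2) to 0.0734 (edgeR with the block), and 6 of the 9 kept the call.

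The order of the *Hmox1* group means was untreated WT (67.7 ± 6.7 CPM), IMQ-treated *Bmal1* Mye-/- (78.3 ± 15.9), untreated *Bmal1* Mye-/- (82.9 ± 8.29) and IMQ-treated WT (93.6 ± 7.59; SD, n = 5 each). Only the first and last of these 4 groups were free of overlap. The log2 fold change of *Bmal1* Mye-/- against WT was 0.29 without IMQ (standard error 0.122, edgeR adjusted p = 1) and −0.26 with it (standard error 0.122, edgeR adjusted p = 0.249). The interaction was −0.55 (standard error 0.173), the only one of the 8 with an unadjusted p-value under 0.05, and did not pass after adjustment (edgeR adjusted p = 0.640).

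*Slc40a1* (chr1:45908068-45926523, minus strand), the most abundant of the 8, fell with IMQ in *Bmal1* Mye-/-. Untreated *Bmal1* Mye-/- libraries were at 406, 391, 323, 407 and 423 CPM and treated ones at 128, 334, 237, 308 and 194. All treated libraries but replicate 2 lay below every untreated one, and replicate 2 lay above the lowest of them. The level was 1.62-fold lower with IMQ (log2 fold change −0.70, standard error 0.235, edgeR adjusted p = 0.0387). In WT the libraries were at 303, 302, 328, 425 and 418 CPM untreated and at 305, 277, 194, 487 and 384 with IMQ, with the highest and the lowest of the 10 both treated. The log2 fold change in WT was −0.11 (standard error 0.233, edgeR adjusted p = 0.833). The call in *Bmal1* Mye-/- held in 3 of the 10 fits that each left out 1 of its libraries, those without untreated replicate 3, IMQ replicate 2 or IMQ replicate 4, and was lost in the other 7, with log2 fold changes over the 10 of −0.82 to −0.53 and edgeR adjusted p-values of 0.021 to 0.0971. In a fit of only these 2 groups it was also lost (log2 fold change −0.68, edgeR adjusted p = 0.0585). With the replicate number as a block it held (log2 fold change −0.73, edgeR adjusted p = 0.0248), and of the 9 settings that kept all libraries, the block among them, 7 kept the call, with adjusted p-values of 0.0221 (DESeq2) to 0.0585 (edgeR).

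By group mean, *Slc40a1* was highest in untreated *Bmal1* Mye-/- (390 ± 39.3 CPM), then untreated WT (355 ± 61.4) and IMQ-treated WT (330 ± 111), and lowest in *Bmal1* Mye-/- with IMQ (240 ± 83.7; SD, n = 5 each), and each pair of neighbours in this order overlapped. Genotype differences were 0.13 without IMQ (standard error 0.233, edgeR adjusted p = 1) and −0.46 with it (standard error 0.234, edgeR adjusted p = 0.263) on the log2 scale. The interaction of −0.59 (standard error 0.33, edgeR adjusted p = 0.640) did not pass, so the effects of IMQ on *Slc40a1* in the 2 genotypes were not shown to differ.

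The scavenging genes *Cd5l* (chr3:87357881-87371073, plus strand) and *Mrc1* (chr2:14229392-14332057, plus strand) were at low counts. *Cd5l* was at 0.307 ± 0.12 CPM in untreated WT, 0.666 ± 0.371 in IMQ-treated WT, 0.48 ± 0.296 in untreated *Bmal1* Mye-/- and 1.01 ± 0.623 in IMQ-treated *Bmal1* Mye-/- (SD, n = 5 each). Its log2 fold change with IMQ was 1.11 in WT (standard error 0.486, edgeR adjusted p = 0.181) and 1.05 in *Bmal1* Mye-/- (standard error 0.477, edgeR adjusted p = 0.111). Treated libraries of WT ran from 0.229 to 1.24 CPM against 0.212 to 0.514 untreated, and those of *Bmal1* Mye-/- from 0.467 to 1.81 against 0.303 to 1.0. The call in *Bmal1* Mye-/- was gained without its untreated replicate 1, the library at 1.0 CPM (log2 fold change 1.51, edgeR adjusted p = 0.0457). Between genotypes *Cd5l* was at 0.65 without IMQ and 0.59 with it on the log2 scale (standard errors 0.485 and 0.472), and neither passed. The first was 0.19 without untreated *Bmal1* Mye-/- replicate 1, and the second was 0.27 without *Bmal1* Mye-/- IMQ replicate 3.

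*Mrc1* had the largest ratio of the highest to the lowest library of the 8 genes in each IMQ-treated group, 16.1 in WT and 19.5 in *Bmal1* Mye-/-. WT libraries were at 0.815, 0.836, 1.49, 1.27 and 1.26 CPM untreated and at 0.104, 0.427, 0.297, 0.863 and 1.67 with IMQ. *Bmal1* Mye-/- libraries were at 1.7, 2.58, 0.505, 0.992 and 0.831 CPM untreated and at 4.36, 2.55, 0.745, 0.935 and 0.224 with IMQ. In WT, 3 treated libraries lay below every untreated one and 1 above, and in *Bmal1* Mye-/- the treated libraries held both the highest and the lowest value. The log2 fold change with IMQ was −0.75 in WT (standard error 0.677, edgeR adjusted p = 0.553) and 0.40 in *Bmal1* Mye-/- (standard error 0.661, edgeR adjusted p = 0.677), and the second was −0.27 without IMQ replicate 1. Of IMQ-treated mice, *Bmal1* Mye-/- were at 1.38 against WT on the log2 scale (standard error 0.682, edgeR adjusted p = 0.255), or 0.71 without *Bmal1* Mye-/- IMQ replicate 1. A microRNA gene, *Mir511*, lies within *Mrc1* on the same strand.

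Set side by side, the 8 genes gave few calls. In WT with IMQ, 1 of 8 passed, *Hmox1*, where 3.95% of the 14030 tested genes passed, 2.34% as higher and 1.6% as lower. In *Bmal1* Mye-/- with IMQ, 1 of 8 passed, *Slc40a1*, where 23.5% of all genes passed, 14.4% as higher and 9.04% as lower. None of the 8 passed between untreated genotypes (0.207% of all genes), between IMQ-treated genotypes (0.292%) or in the interaction (0.0%), and none did so there with DESeq2, with any other setting or with any 1 library left out. At an unadjusted edgeR p-value under 0.05, 5 of the 8 were counted in WT with IMQ (*C1qa*, *C1qb*, *C1qc*, *Hmox1* and *Cd5l*, against 22.3% of all genes) and 3 in *Bmal1* Mye-/- with IMQ (*C1qb*, *Cd5l* and *Slc40a1*, against 39.3%). *Hmox1* alone was counted between untreated genotypes (2.19% of all genes), between IMQ-treated genotypes (19.9%) and in the interaction (5.14%). Only *Hmox1* in WT with IMQ had groups that did not overlap, where 6.43% of all genes had none. For *Bmal1* Mye-/- with IMQ that share of all genes was 20.1%, for the untreated genotypes 1.52% and for the IMQ-treated genotypes 1.07%, each with 0 of the 8. The median log2 fold change of the 8 was 0.79 in WT with IMQ and 0.57 in *Bmal1* Mye-/- with IMQ, against 0.03 and 0.02 over all tested genes. The C1q genes varied together and shared their highest library, WT IMQ replicate 3, so the 8 genes are not independent of each other. Comparisons that share a group share its libraries, so their values are not independent.

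**Figure D3:**
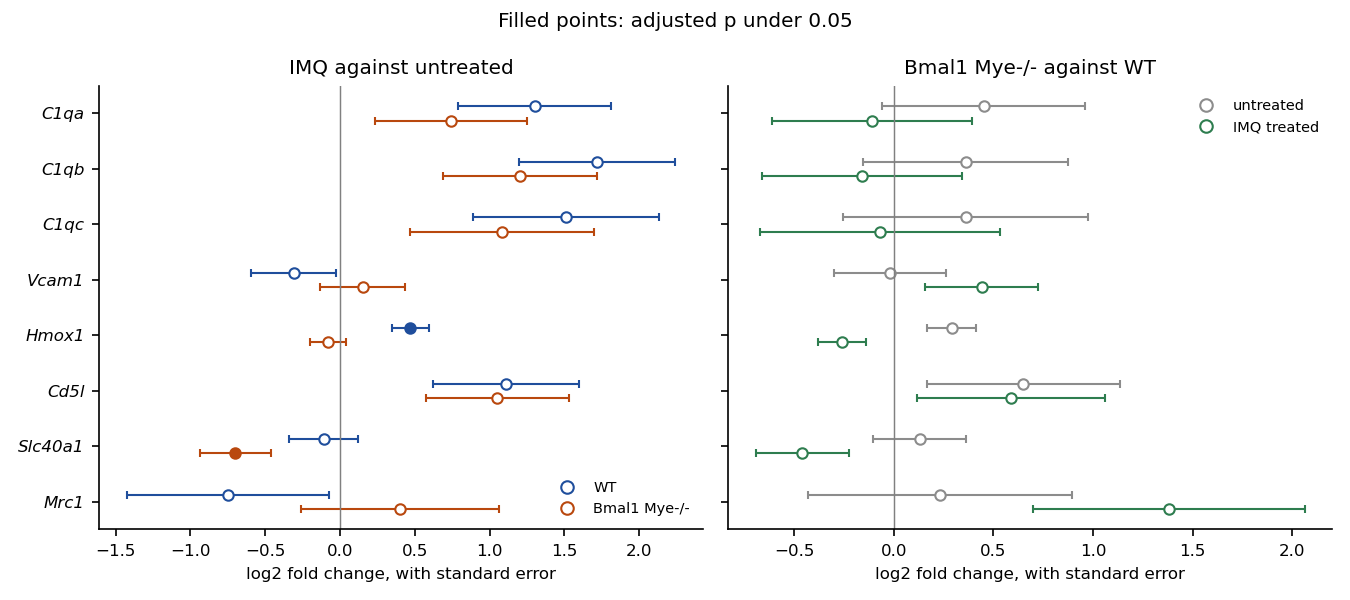
Log2 fold changes of the 8 genes with their standard errors are plotted for IMQ against untreated in each genotype and for *Bmal1* Mye-/- against WT in each treatment. Only *Hmox1* in WT (0.47) and *Slc40a1* in *Bmal1* Mye-/- (−0.70) are filled, which marks an edgeR adjusted p under 0.05, and the C1q genes have the 3 largest values with IMQ in WT, with wide errors.

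The 8 genes did not vary as 1 group across libraries. Described by Pearson's r of log2 CPM over the 20 libraries, which share depth, groups and composition, *C1qa* and *C1qb* had r = 0.91, *C1qa* and *C1qc* 0.86, and *C1qb* and *C1qc* 0.82. About the group means, these were 0.88, 0.82 and 0.75. *Cd5l* had r of 0.65 to 0.66 with the C1q genes. *Slc40a1* ran the other way, with r of −0.59, −0.69 and −0.62 with *C1qa*, *C1qb* and *C1qc*, −0.61 with *Cd5l* and −0.61 with *Vcam1*. *Hmox1*, its partner in iron handling, had r of 0.25 with *Slc40a1*, and *Mrc1* had r of −0.17 to −0.33 with the C1q genes.

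**Figure D4:**
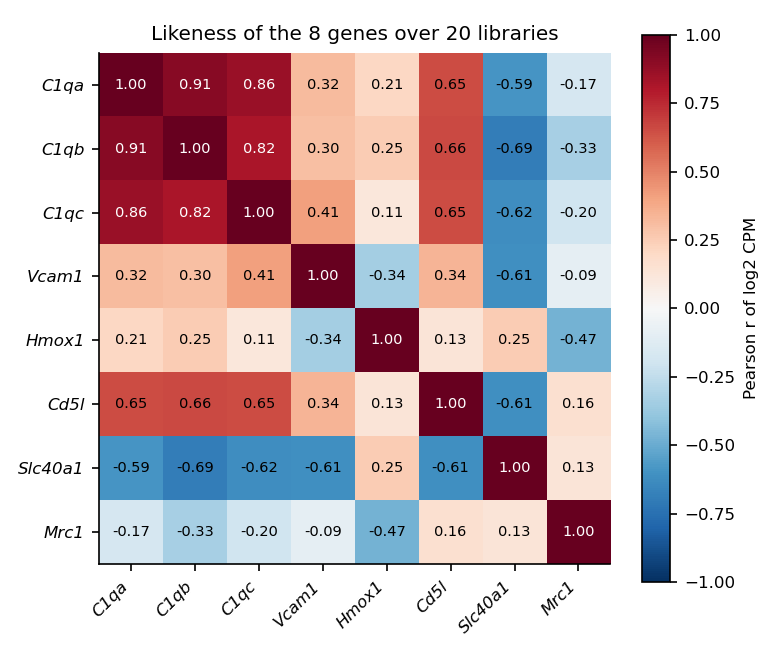
The matrix gives Pearson's r of log2 CPM over the 20 libraries for each pair of the 8 genes. The C1q genes form a block of 0.82 to 0.91, *Cd5l* joins them at 0.65 to 0.66, and *Slc40a1* is negative with each of these 4.

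Of the genes outside the set, *Axl*, a receptor through which macrophages take up dying cells, was most like the mean of the 8 (r = 0.87), followed by *Palld* (0.80), *Slc1a5* (0.80), *Clic5* (0.79), *Kcne4* (0.78), *Aebp1* (0.78), *B4galnt2* (0.77), *1700101I11Rik* (0.77), *Pon2* (0.77) and *Ccl27a* (0.76). It was also nearest to *C1qa* (r = 0.91), ahead of *C1qb*, *C1qc* and *Nlrp10* (0.84), and had r of 0.95 with *C1qb* and 0.89 with *C1qc*. Nearest to *Vcam1* were *D2Wsu81e* (r = 0.85), *Eef1e1*, *Ldhb*, *Nkg7* and *Zc3h7b* (0.84 each). For *Hmox1* they were *Atxn10* (r = 0.87), *Tstd2* (0.86), *Gyk* (0.86), *Pacsin2* (0.84) and *Rab31* (0.84). The same measure was taken for the other genes after their values were seen. *Slc40a1* was nearest to *Card6* (r = 0.98), *Sorl1* (0.98), *Rassf3* (0.97), *Rab11fip1* (0.97) and *Cxcr2* (0.97), the last being the chemokine receptor of mature neutrophils. *Mrc1* was nearest to *Slc9a7* (0.94), *Padi2* (0.93), *Abca9* (0.92), *Plxdc1* (0.92) and *Lpar5* (0.91), and *Cd5l* to *Il11ra1* (0.84), *Apcdd1* (0.82), *AW554918* (0.82), *Gramd4* (0.81) and *Slc1a5* (0.81).

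**Figure D5:**
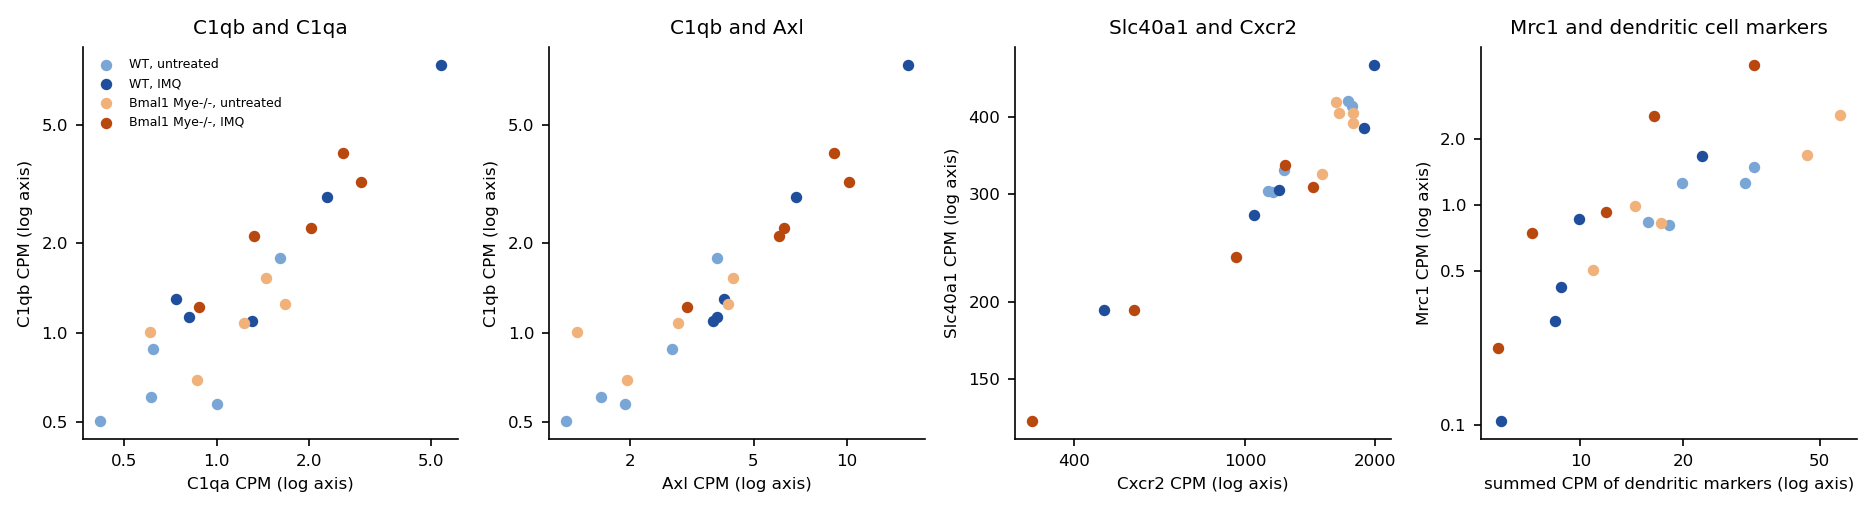
CPM values of the 20 libraries (points, coloured by group, log axes) are plotted for *C1qb* against *C1qa*, *C1qb* against *Axl*, *Slc40a1* against *Cxcr2* and *Mrc1* against the summed CPM of dendritic cell markers. The points run from low to high together in each panel, with r of 0.91, 0.95, 0.97 and 0.83 on the log2 scale, and WT IMQ replicate 3 is at the top of the first 2 panels. The dendritic sum is led by *H2-Ab1*, *H2-Eb1* and *H2-Aa*.

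Other genes of the same pathways moved in part, and their lists are given by the genes that passed. Over all tested genes, 2.34% passed as higher and 1.6% as lower in WT with IMQ, and 14.4% and 9.04% in *Bmal1* Mye-/- with IMQ, and a list's count near these shares is no result about the list. Of 10 tested genes of island adhesion and engulfment, none passed in WT and 4 passed in *Bmal1* Mye-/- with IMQ. *Axl* (log2 fold change 1.24, edgeR adjusted p = 0.0490) and *Dnase2a*, the nuclease that digests expelled nuclei (1.04, edgeR adjusted p = 0.0469), rose, while *Gas6*, a ligand of *Axl* (−2.56, edgeR adjusted p = 0.0138), and *Stab1*, a scavenger receptor (−1.98, edgeR adjusted p = 0.0159), fell. The 2 that rose did not hold with the replicate number as a block (edgeR adjusted p = 0.0717 for *Axl* and 0.0706 for *Dnase2a*), and *Axl* also failed with RLE factors and with library size only. In WT, *Axl* was at 1.59 (edgeR adjusted p = 0.0511), and 1 gene of the list passed there with RLE factors. Of 17 haem and iron genes, 1 fell in WT, *Trf*, which encodes transferrin (−1.42, edgeR adjusted p = 0.0276). That WT call was lost in a fit of only the 2 groups and held in 2 of the 10 fits without 1 library. With IMQ, 4 fell and 2 rose in *Bmal1* Mye-/-. Among those that fell were *Trf* (−2.0, edgeR adjusted p = 0.0046) and the ferritin genes *Ftl1* (−0.78, edgeR adjusted p = 0.00627) and *Fth1* (−0.94, edgeR adjusted p = 0.0116). *Blvra*, a biliverdin reductase that acts after haem oxygenase (1.14, edgeR adjusted p = 0.0189), was among those that rose.

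Of 7 tested scavenger receptor genes none passed in WT and 1 fell in *Bmal1* Mye-/-, *Clec7a*, the beta-glucan receptor (−1.44, edgeR adjusted p = 0.0315). The *Clec7a* call was lost in both analyses of variance on log2 RPKM and held in 3 of the 10 fits without 1 library. Of 11 lipid genes, 3 rose in WT, the cholesterol exporters *Abca1* (2.43, edgeR adjusted p = 0.0218) and *Abcg1* (0.88, edgeR adjusted p = 0.0371) and the desaturase *Scd2* (2.42, edgeR adjusted p = 0.0226). Of these calls, that of *Scd2* was lost with the replicate block (edgeR adjusted p = 0.0507), and that of *Abcg1* with no filter. Those of *Abcg1* and *Scd2* were also lost in a fit of only the 2 groups. In the 10 fits without 1 library, *Abca1* held in 3, *Abcg1* in 2 and *Scd2* in 2. In *Bmal1* Mye-/- *Scd2* rose (1.70, edgeR adjusted p = 0.0303) and *Apoe* fell (−1.14, edgeR adjusted p = 0.0336), a call lost with library size only and with the replicate block (edgeR adjusted p = 0.0611). Of 12 genes of tissue macrophage identity none passed in WT and 1 rose in *Bmal1* Mye-/-, *Fcgr1*, the high-affinity Fc receptor for IgG (1.99, edgeR adjusted p = 0.0171). *Adgre1* was at −0.67 and −0.86 and *Csf1r* at −0.76 and −1.03 in WT and *Bmal1* Mye-/-, and neither passed. Of 12 other complement genes none passed in WT and 1 fell in *Bmal1* Mye-/-, *Cfp*, which encodes properdin (−0.81, edgeR adjusted p = 0.0222). *C1ra* and *C1s1*, which encode the proteases that join C1q, were at −0.00 and −0.97 in WT and 0.01 and −0.86 in *Bmal1* Mye-/-, without passing. No gene of any list passed in a genotype comparison or in the interaction.

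Markers of other cell types also moved with IMQ, and their part in the values of the 8 genes was not tested. Of 10 monocyte genes none passed in WT and 7 rose in *Bmal1* Mye-/-, where 14.4% of all genes rose. They were led by *Ccr2* (2.30, edgeR adjusted p = 0.0117), *Ms4a6c* (1.92, edgeR adjusted p = 0.0150), *Cd14* (1.75, edgeR adjusted p = 0.0152) and *Ms4a4c* (1.87, edgeR adjusted p = 0.0199). All of the 7 but *Cd14* were lost in both analyses of variance on log2 RPKM. *Ms4a6c* and *Ms4a4c* were also lost in a fit of only the 2 groups. Treated libraries spread widely, with *Ccr2* at 125 ± 166 CPM (SD, n = 5). The summed level of the 10 genes was 944 to 1150 CPM in untreated WT, 1230 to 1920 in IMQ-treated WT, 942 to 1220 in untreated *Bmal1* Mye-/- and 1030 to 3930 in IMQ-treated *Bmal1* Mye-/-. Over the 20 libraries it had r of 0.38 to 0.43 with the C1q genes and −0.56 with *Slc40a1*, but 0.03 to 0.10 and −0.32 about the group means. Of 8 tested dendritic cell genes none passed. The highest, *H2-Ab1* and *H2-Eb1*, were at −1.11 and −1.51 in WT and −0.96 and −1.26 in *Bmal1* Mye-/-, and the summed dendritic level had r of 0.83 with *Mrc1*, or 0.89 about the group means. It was 15.7 to 32.1 CPM in untreated WT, 5.86 to 22.6 in IMQ-treated WT, 10.9 to 57.3 in untreated *Bmal1* Mye-/- and 5.75 to 32.2 in IMQ-treated *Bmal1* Mye-/-. The MHC class II genes *H2-Ab1*, *H2-Eb1* and *H2-Aa* had the highest means of this list in each group. *Mrc1* also had r of 0.69 with the summed genes of tissue macrophage identity, 0.61 with B-lineage genes and 0.56 with plasma cell genes. Its likeness was therefore not particular to dendritic markers.

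Of 11 neutrophil genes none passed in WT and 1 fell in *Bmal1* Mye-/-, *Csf3r*, the receptor for granulocyte colony-stimulating factor (−1.38, edgeR adjusted p = 0.0223). The neutrophil sum had r of 0.73 with *Slc40a1* and −0.52 to −0.59 with the C1q genes, and 0.70 and −0.46 to −0.54 about the group means. Of 7 tested erythroid genes 1 rose in WT, *Alas2*, the first enzyme of haem synthesis in red cells (2.76, edgeR adjusted p = 0.0450), and none passed in *Bmal1* Mye-/-. The *Alas2* call was lost with library size only and with the replicate block (edgeR adjusted p = 0.0745). *Hba-a1*, *Hba-a2*, *Hbb-bt* and *Hbb-bs* are listed at 0 in every library, so haemoglobin is no measure of red cells here. The summed erythroid level was 76.1 to 181 CPM in untreated WT, 136 to 721 in IMQ-treated WT, 51.2 to 323 in untreated *Bmal1* Mye-/- and 30.8 to 580 in IMQ-treated *Bmal1* Mye-/-, with r of 0.43 to 0.55 with the C1q genes, or 0.46 to 0.59 about the group means.

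Markers of lymphoid, stromal and megakaryocyte cells were lower with IMQ where they passed. Of 6 plasma cell genes 4 fell in WT (*Sdc1*, *Jchain*, *Prdm1* and *Mzb1*) and 3 in *Bmal1* Mye-/- (*Jchain*, *Sdc1* and *Mzb1*), with *Jchain* at −2.56 (edgeR adjusted p = 0.0298) and −2.67 (edgeR adjusted p = 0.00894). The 4 WT calls were lost with the replicate block (edgeR adjusted p = 0.0568, 0.0617, 0.0841 and 0.093) and in a fit of only the 2 groups. They held in 4, 2, 1 and 1 of the 10 fits without 1 library. In *Bmal1* Mye-/- the block lost *Mzb1* (edgeR adjusted p = 0.0629). Of 8 tested B-lineage genes none passed in WT and 3 fell in *Bmal1* Mye-/-, among them *Vpreb3* (−3.12, edgeR adjusted p = 0.0148) and *Cd79a* (−1.12, edgeR adjusted p = 0.0334, or 0.0617 with the replicate block). Of 8 tested stromal and endothelial genes 2 fell in WT, *Cxcl12* (−1.77) and *Lepr* (−1.57, edgeR adjusted p = 0.0469 each). Both calls were lost with library size only and with the replicate block (edgeR adjusted p = 0.0676 and 0.0736). In *Bmal1* Mye-/- 3 fell, *Cxcl12* (−1.96, edgeR adjusted p = 0.0117), *Lepr* (−1.43, edgeR adjusted p = 0.0249) and *Col1a2* (−2.46, edgeR adjusted p = 0.0403, or 0.0691 with the replicate block). Of 4 tested T and NK cell genes none passed in WT and *Cd4* fell in *Bmal1* Mye-/- (−2.60, edgeR adjusted p = 0.0314), and the list's summed level, nearly all of it the 1 gene *Nkg7*, had r of 0.84 with *Vcam1*. *Nkg7* averaged 5.42 to 10.9 CPM by group, while no other tested gene of that list averaged above 0.391. *Cd4* averaged 0.306 CPM in untreated and 0.0492 in IMQ-treated *Bmal1* Mye-/-. Its call was lost with DESeq2 and with no filter, and held in 5 of the 10 fits without 1 library. Of 6 megakaryocyte genes none passed in WT and *Gp1ba* fell in *Bmal1* Mye-/- (−1.13, edgeR adjusted p = 0.00687).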

How the data were processed

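The authors sequenced 1 poly(A) RNA library per mouse and deposited raw counts, whole-number reads per gene without normalization. The submitters' processing notes name bcl2fastq, STAR 2.7.8a, HTSeq 2.0.1 and mm10, whereas the study's methods name TopHat with Read 1 and a step to RPKM. Which of the 2 made the files was not settled, and the annotation and strand setting are not given in the sources used here. The lines of unassigned reads were left out of library sizes.

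The 24421 genes were tested with edgeR 4.0.16 under R 4.3.3. Genes were kept by filterByExpr with the 4 groups, scaled with TMM factors, and fitted in 1 quasi-likelihood model of the 4 groups. The 5 comparisons were IMQ against untreated in each genotype, *Bmal1* Mye-/- against WT in each treatment, and their interaction, with Benjamini-Hochberg adjustment over 14030 genes and a threshold of 0.05. Standard errors came from the F statistic. Correlations used log2 CPM with a prior count of 2. RPKM were computed from the counts and exon lengths of GENCODE on mm10, with 23376 genes matched by symbol, 670 by an older symbol and 375 not matched. The scripts were tested on simulated data.

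The 8 genes, the gene lists and the motifs were chosen with earlier results of these data known. Named are all 8 genes, of each list up to 4 genes with the smallest p among those that passed (or, for a list with none in either IMQ comparison, the 2 highest), and the genes nearest in pattern. Values of 2 genes that this rule names are not reported here. The nearest genes of *Slc40a1*, *Mrc1* and *Cd5l* were added after their values were seen, as were the values of *Axl* in WT, *Adgre1*, *Csf1r*, *Cd68*, *Lyve1*, *C1ra* and *C1s1*.

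Libraries of the same replicate number were checked for pairing by the correlation of their deviations from the group means. For IMQ against untreated in *Bmal1* Mye-/- all 5 were above 0.1 (0.128 to 0.426). They were 0.0728 to 0.384 in WT, −0.441 to 0.206 between untreated genotypes and −0.497 to 0.343 between IMQ-treated genotypes. Libraries of different numbers were not compared in this way, so whether the numbers pair libraries was not shown. The main model had no replicate term. Alternatives were RLE factors, library size only, DESeq2 1.42.0, no filter, at least 10 counts in every library, only the 2 groups compared, a replicate block, an analysis of variance on log2(RPKM + 0.1) or log2(RPKM + 1) with limma 3.58.1, and leaving out each library. Nothing else in the labels marks a batch.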

Additional observations from a re-analysis of the deposited data

Results flagged for a closer look

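Among the 32 groups of 5 libraries formed by the 8 genes and 4 groups, 4 held a library whose gap to its nearest neighbour was a larger share of the group's range than Dixon's 95% critical value of 0.71, and chance alone marks about 1 in 20 groups. The C1q genes share their high library, so these groups are not independent. *C1qb* was at 7.98 CPM in WT IMQ replicate 3, with the next library at 2.87 (gap over range 0.742). *C1qc* was at 1.66 CPM in untreated WT replicate 3, with the next at 0.8 (0.762). *Cd5l* was at 0.514 CPM in the same untreated WT replicate 3, with the next at 0.288 (0.749), and at 1.0 CPM in untreated *Bmal1* Mye-/- replicate 1, with the next at 0.442 (0.8).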

How the results depend on the processing

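In WT with IMQ, 1 of the 8 genes passed, but 0 with RLE factors, 0 with no filter, 0 with the replicate block and 2 with DESeq2 (*C1qb* and *Hmox1*), and 0 to 2 when 1 library was left out, with 2 without WT IMQ replicate 5. In *Bmal1* Mye-/- with IMQ, 1 passed, but 0 with no filter and 0 to 1 when 1 library was left out. In a fit of only these 2 groups the gene was *C1qb* in place of *Slc40a1*. The replicate block changed no other call of the 8 genes, and the cause of these changes was not tested. With at least 10 counts in every library, *C1qc*, *Cd5l* and *Mrc1* were not tested.

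Values that changed sign were small or noisy. *Hmox1* in *Bmal1* Mye-/- with IMQ was at 0.03 with library size only and 0.02 in both analyses of variance (without 1 library −0.17 to 0.03). Between untreated genotypes, *Vcam1* was at 0.01 with the replicate block and 0.02 and 0.01 in the analyses of variance (−0.16 to 0.10 without 1 library), and *Mrc1* at −0.02 with the replicate block (−0.16 to 0.41). Between IMQ-treated genotypes, *C1qa* was at 0.04 with library size only, 0.11 with the replicate block and 0.34 and 0.17 in the analyses of variance (−0.31 to 0.62), *C1qb* at 0.18 with the replicate block and 0.37 and 0.20 (−0.38 to 0.70), and *C1qc* at 0.08 with library size only, 0.19 with the replicate block and 0.32 and 0.18 (−0.27 to 0.68). In the interaction, *C1qb* was at 0.0 in the analysis of variance with an offset of 1, *C1qc* at 0.22 and 0.06 in the analyses of variance, and *Cd5l* at 0.11 with library size only and 0.21 and 0.11 in the analyses of variance. Their ranges without 1 library were −0.93 to 0.35, −0.80 to 0.33 and −0.36 to 0.40, and that of *C1qa* −0.90 to 0.17. Leaving out 1 library also gave −0.30 to 0.03 for *Slc40a1* in WT with IMQ, −0.27 to 0.79 for *Mrc1* in *Bmal1* Mye-/- with IMQ and −0.05 to 0.75 for *C1qc* between untreated genotypes.

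Counts over all genes moved too. In WT with IMQ 554 genes passed, against 1480 with DESeq2, 326 with no filter, 190 with the replicate block, 186 with only the 2 groups and 48 to 1989 without 1 library (1989 without WT IMQ replicate 5). In *Bmal1* Mye-/- 3292 passed, against 1612 to 4037 without 1 library. Between untreated genotypes 29 passed, against 59 with only the 2 groups, and between IMQ-treated genotypes 41, against 311 with DESeq2, 16 with only the 2 groups and 20 to 3129 without 1 library (3129 without WT IMQ replicate 3). The interaction had 0, with 1 without WT IMQ replicate 5. Library size only shifted the median log2 fold change of all genes to 0.16 in *Bmal1* Mye-/- with IMQ, 0.23 between IMQ-treated genotypes and 0.20 in the interaction, and the share of calls that were higher between IMQ-treated genotypes from 63.4% to 74.5%. Calls of list genes near the threshold moved as well. The replicate block lost, in *Bmal1* Mye-/- with IMQ, *Axl*, *Dnase2a*, *Apoe*, *Cd79a*, *Col1a2*, *Mzb1* and, named here after their values were seen, *Fn1*, *Klf4* and *Lrp1*, and library size only lost *Axl*, *Apoe*, *Lepr* and *Mzb1*. In WT library size only lost *Alas2*, *Cxcl12* and *Lepr*. The replicate block lost most WT calls of list genes, *Alas2*, *Cxcl12*, *Lepr*, *Jchain*, *Mzb1*, *Prdm1*, *Scd2* and *Sdc1*, and kept *Abca1*, *Abcg1* and *Trf*. No called list gene changed direction under any setting. Counts of 4 to 456 reads limit *C1qa*, *C1qb*, *C1qc*, *Cd5l* and *Mrc1*.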

Other observations

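Single markers, chosen after the values were seen, differed in how they ran with *C1qa*, *C1qb* and *C1qc* over the 20 libraries, which share groups and depth. *Axl* had r of 0.89 to 0.95, *Itgad* 0.36 to 0.49 and *Mertk* 0.39 to 0.44. *Spic*, on values of 0 to 0.682 CPM, had r of 0.45, 0.26 and 0.12. *Cd163* had −0.05 to 0.13 and *Siglec1* −0.14 to −0.07, which was 0.11 to 0.15 about the group means. *Adgre1* had −0.69 to −0.52 and *Csf1r* −0.71 to −0.55. With *Mrc1*, *Cd163* had r of 0.86, *Adgre1* 0.79 and *Csf1r* 0.70. These are descriptions with no test.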
